A study of Mus musculus with 66 samples.

Results

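The miRNAs miR-297, miR-466, miR-467 and miR-669 form a large group of related mouse miRNAs, most of whose hairpins lie side by side in an intron of Sfmbt2. They were followed here in mouse plasma, where each value is a number of unique molecular indices (UMIs), a molecular barcode that counts PCR copies of a molecule only once. A row of the miRNA table was taken as a member when its name began with miR-297, miR-466, miR-467 or miR-669, followed by a letter or a hyphen. This gave 48 rows of 1826 in C3H mice, 3 of miR-297, 16 of miR-466, 10 of miR-467 and 19 of miR-669. In 6 of these rows the names of several mature miRNAs are joined, so that the 48 rows hold 56 names.

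The C3H mice were 13 males of an inbred strain, 8 with hepatocellular carcinoma (HCC mice 1 to 8) and 5 without it (non-HCC mice 1 to 5). According to the labels all 13 were sampled more than 12 months after radiation, while the study's methods count 5 spontaneous and 3 radiation-induced tumors among the 8 HCC mice, which the labels do not tell apart. Blood was taken at necropsy by cardiac puncture, and the groups are compared as they were deposited, without a match for age. The second table holds 53 columns of F2 mice, the second generation of a cross of C3H with BALB/c, irradiated and bled at 1, 6, 12 or 18 months, all from mice that developed HCC. These mice, of both sexes, were bled repeatedly, so that several columns come from the same mouse and the columns are not separate animals. The column names of the F2 table match no label. The month, the sex and the mouse of a column are thus not known here, and the values are given only as ranges and medians.

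As background, Sfmbt2 codes for a Polycomb group protein and is imprinted in mouse, where the paternal copy is active in the early embryo and the placenta. The cluster is known from mouse and rat and has no counterpart in human. Its hairpins arose by repeated duplication, and many of their mature miRNAs consist largely of UG repeats on the 5p arm and CA repeats on the 3p arm, so that copies resemble each other closely. A read of such a miRNA can be hard to assign to a single copy, and the split of UMIs between near-identical rows is uncertain for this reason.

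On the genome build of the files, GRCm38, Sfmbt2 lies at chr2:10370510-10595253 on the plus strand. The annotation places 72 hairpin genes of the 4 families inside it, between positions 10466663 and 10518279, all within the intron at chr2:10461473-10523944 and 0 of them overlapping an exon. A further 10 hairpin genes of these families lie on other chromosomes, so that the name of the group does not hold for every member. By name, 37 of the 48 rows come from Sfmbt2 alone and carry 92.7% of the UMIs of all members. Another 6 rows come from elsewhere and carry 4.33%. The remaining 5 have copies at both kinds of place and carry 3.02%. The miR-466i hairpin, for example, lies in an intron of Cdk13 on the opposite strand (chr13:17747473-17747593), the miR-467g hairpin in an intron of Grk4 (chr5:34732853-34732972), also on the opposite strand, and the miR-669n hairpin in an intron of Slc30a7 (chr3:115979902-115979955), again on the opposite strand. The hairpin of miR-467h (chr9:115381819-115381939) overlaps no other annotated gene.

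The RefSeq tables of GRCm38.p6 used here hold the mature sequence of 8 of the 64 member rows found in either mouse table, 5 of them among the C3H rows. The following sequences, written 5′ to 3′ with the seed (bases 2 to 8) in capitals, show the repeat character of both arms. They are followed by 2 UG-rich miRNAs from outside the families, which serve for comparison below.

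miR-466i-3p: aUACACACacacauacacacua
miR-466k: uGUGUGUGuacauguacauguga
miR-467f: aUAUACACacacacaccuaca
miR-467g: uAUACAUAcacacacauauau
miR-467h: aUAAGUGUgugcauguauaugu
miR-669n: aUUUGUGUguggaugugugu
miR-574-5p: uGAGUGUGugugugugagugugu
miR-1187: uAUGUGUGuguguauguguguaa

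Alternating A and C run on for 11 bases in miR-466i-3p and for 12 in miR-467f, and alternating U and G for 9 in miR-466k and 13 in miR-574-5p. The letters UGUGUGUG occur in 7 of 1679 mature names of the RefSeq table (0.417%), 2 of them members, miR-466k and miR-669n. The 8 member sequences have 8 different seeds. The seed of miR-467h is also that of miR-668-5p, and the other seeds occur in no other mature miRNA of the table. Since the table lacks the sequences of all other member rows, a seed shared with those rows would not be seen here.

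Plasma held little of these miRNAs. The library of a C3H mouse contained 9513136 to 14247488 miRNA UMIs, and the 48 members together made up 0.00526% of them in the lowest mouse and 0.0274% in the highest. The lowest value above 0 in the files is 10 UMIs, and a 0 is therefore taken to stand for up to 9 UMIs, which is 0.632 to 0.946 UMIs per 1000000 miRNA UMIs (counts per 1000000, or CPM) at the depths of these libraries. Entries of 0 made up 45.7% of the members' values, against 30.6% over all miRNAs. Between 17 and 36 members were above 0 in a mouse. Only 10 members were above 0 in all 13 mice, and 9 were above 0 in a single mouse.

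Both leading members belong to miR-669. The row of miR-669a-3p and miR-669o-3p carried 36.3% of the members' UMIs and ranked 197 of 1826 by UMIs over all mice, and miR-669c-5p carried 23.1% and ranked 227. The next was miR-466d-3p with 3.3%, so that the abundance fell steeply after the first pair. By family, miR-669 carried 71% of the UMIs, miR-466 17.6%, miR-467 9.55% and miR-297 1.86%.

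**Figure D1:**
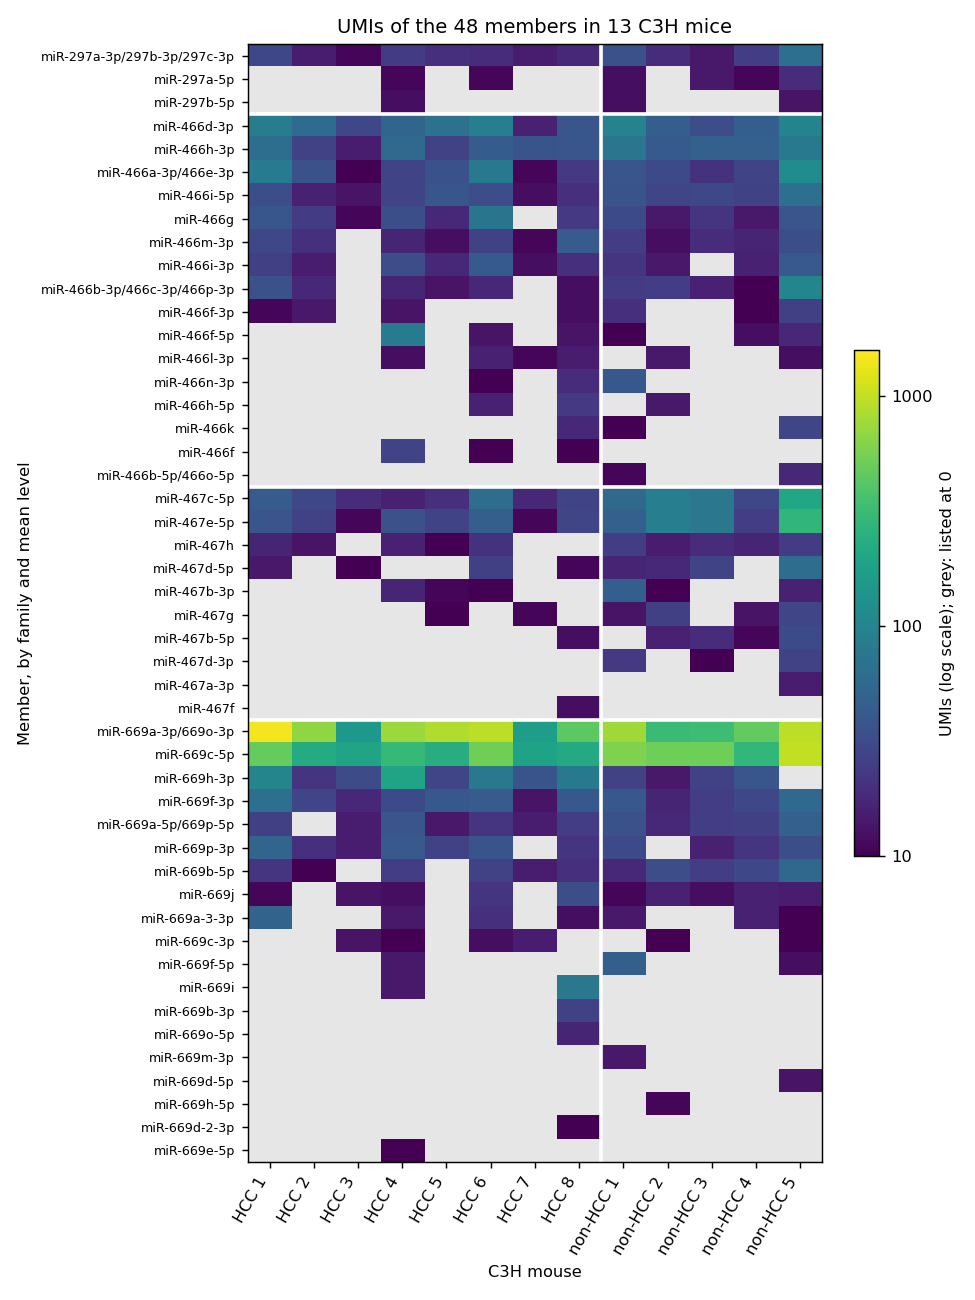
UMIs of each of the 48 members (vertical axis, ordered by family and mean level) in each of the 13 C3H mice (horizontal axis), with color on a log scale and grey for an entry of 0. The miR-669a-3p/miR-669o-3p and miR-669c-5p rows stand above all others in every mouse, and HCC 3 and HCC 7 have the fewest UMIs of members in all (576 and 622).

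For levels, 1 UMI was added to each count and the sum was divided by the mean count of the spike-ins UniSP2 and UniSP4, synthetic RNAs given to the plasma ahead of RNA extraction, and log2 was taken. The spike-in mean was first divided by its own geometric mean of all 13 mice. The spike-in counts differed widely, with UniSP2 at 165794 to 938898 UMIs for the HCC group and 364466 to 731761 for the non-HCC group. UniSP4 had only 225 to 1008 UMIs over all mice, so that the mean of both rests almost wholly on UniSP2. HCC 2 and HCC 5 had the lowest spike-in means and HCC 3 and HCC 7 the highest. The log2 spike-in mean and the summed log2 level of the members, which has that mean in its denominator, had a Pearson r of -0.84 over the 13 mice. The fold changes and sums of members are therefore also given on a scale that does not use the spike-ins, either in CPM or with TMM factors, which set the trimmed mean of the log ratios between libraries to 0. Over all miRNAs tested the median log2 fold change of HCC over non-HCC was 0.78 on the spike-in scale and 0.17 with TMM factors, and this shift of all miRNAs stands behind every fold change below.

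HCC libraries also resembled each other in pairs. Over 318 miRNAs with at least 50 UMIs in every mouse, the log2 shares of HCC 1 and HCC 6, taken as deviations from the mean over all mice, had a Pearson r of 0.98, those of HCC 2 and HCC 5 one of 0.95 and those of HCC 3 and HCC 7 one of 0.92. No other pair of libraries exceeded 0.81. The effect of counting each such pair as 1 library is given with the results it changes.

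Summed over all 48 rows, the members gave 2800, 1300, 576, 1975, 1540, 2406, 622 and 1456 UMIs in HCC mice 1 to 8 and 2320, 1482, 1419, 1293 and 3661 UMIs in non-HCC mice 1 to 5. The highest sum was that of non-HCC 5 and the groups overlapped widely. On the log2 scale the summed level averaged 10.63 ± 1.58 (SD, n = 8) with HCC and 10.58 ± 0.95 (SD, n = 5) without, a difference of 0.05, and as log2 of CPM the difference was -0.31. In CPM, HCC mice ranged from 52.6 to 274 with a median of 132 and non-HCC mice from 95.6 to 262 with a median of 136. Sums over members are given as descriptions, without a test.

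**Figure D2:**
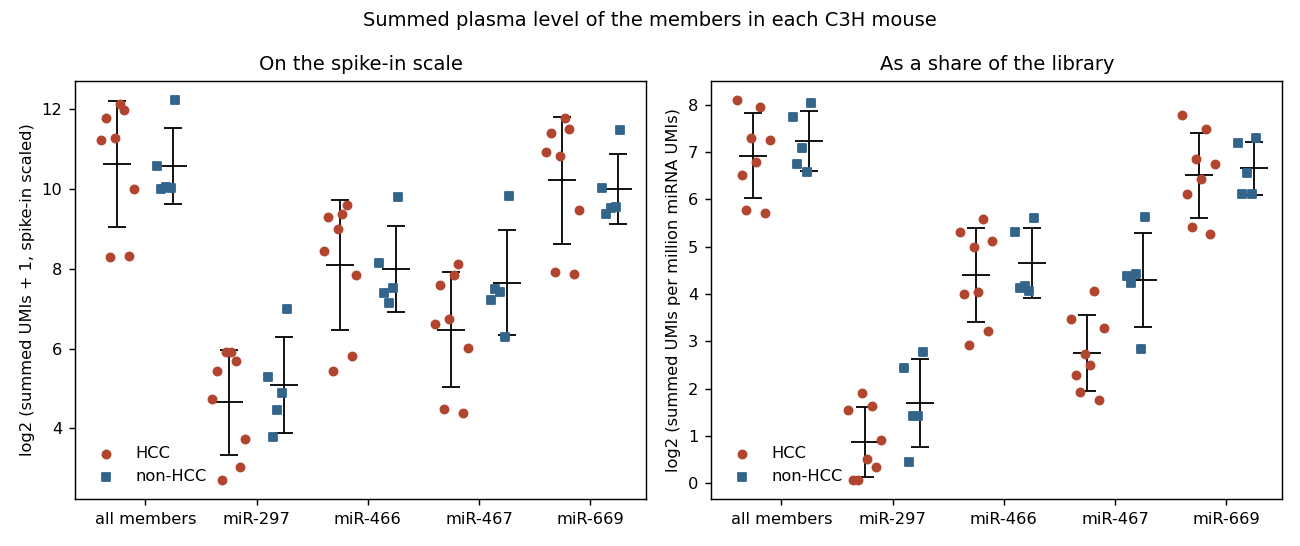
Summed level of all members and of each family in each C3H mouse, as log2 of spike-in scaled UMIs (left) and as log2 of CPM, UMIs per 1000000 miRNA UMIs (right). Circles are HCC mice, squares are non-HCC mice, and the bars show mean and SD. The groups overlap in every set, and the means lie farthest apart for miR-467, with a difference of -1.17 on the left and -1.54 on the right.

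By edgeR's quasi-likelihood test with the spike-in scale and Benjamini-Hochberg adjustment over all 1452 miRNAs tested, 0 of the members passed the threshold of 0.05 in either direction. Over all miRNAs 7.51% were called higher in HCC and 0% lower. The test took in 30 members, those listed in 5 or more mice, which means 10 or more UMIs in each, and the other 18 were listed in fewer. At an unadjusted p under 0.05 it listed 1 member as higher and 1 as lower, compared with 280 and 3 over all miRNAs. Of the 30 members tested, 15 had a positive and 15 a negative log2 fold change, with a median of -0.02, which lies below the median of 0.78 over all miRNAs. With TMM factors 0 members were called higher and 2 lower, miR-467c-5p and miR-467e-5p, where 7.37% of all miRNAs were called higher and 2.2% lower. On that scale 10 fold changes were positive and 20 negative, with a median of -0.58 against 0.17 over all miRNAs. With its own size factors DESeq2 called 0 members higher and 2 lower, again miR-467c-5p and miR-467e-5p, where 12% of all miRNAs were called higher and 3.39% lower. With the spike-ins as size factors it called 1 member higher, miR-669h-3p, and 0 lower, where 20.4% and 0.225% of all miRNAs were called. In that fit DESeq2 gave an adjusted p to 887 miRNAs, 18 of them members. No member separated the groups on the spike-in scale. Over all 1826 miRNAs, every HCC mouse lay above every non-HCC mouse for 1.2% and below for 0%.

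**Figure D3:**
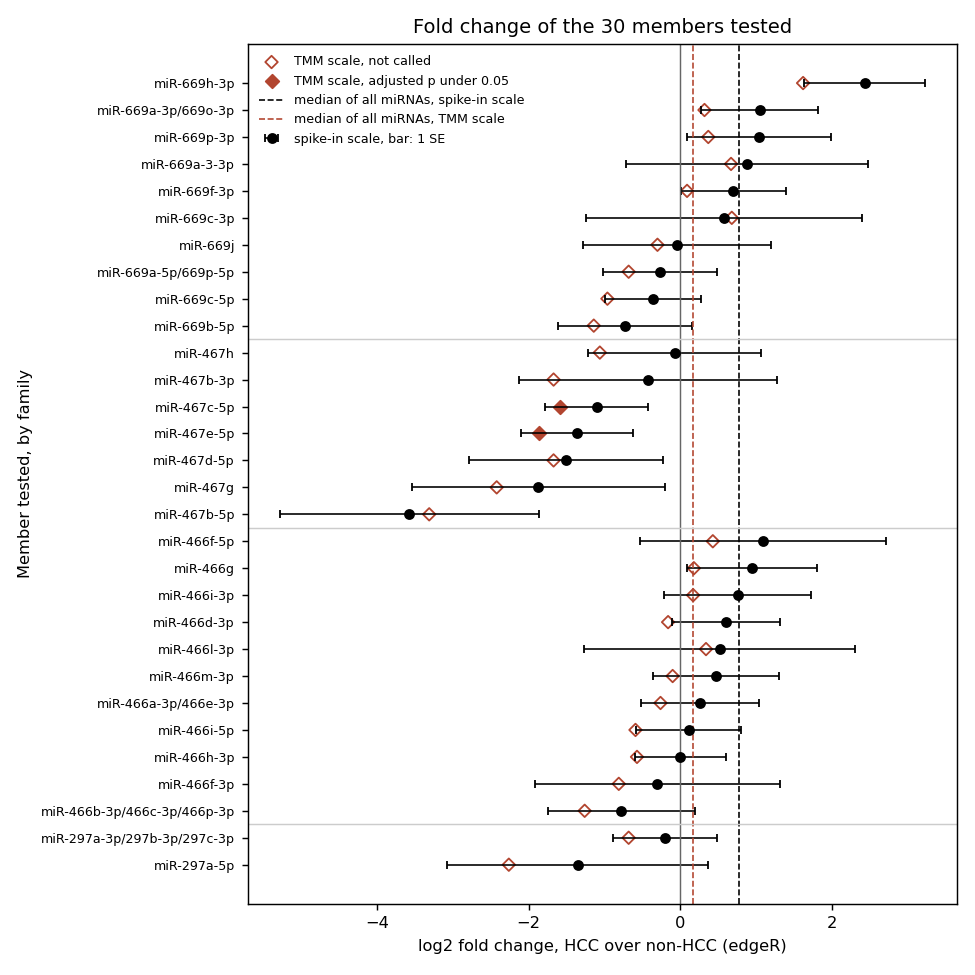
Log2 fold change of HCC over non-HCC (horizontal axis, edgeR) for the 30 members tested, ordered by family. Black circles with bars of 1 SE are on the spike-in scale, diamonds are with TMM factors and are filled where the adjusted p was under 0.05, and dashed lines mark the medians over all miRNAs tested (0.78 and 0.17). All 7 members of miR-467 lie below 0 on both scales, and the filled diamonds are miR-467c-5p and miR-467e-5p.

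The families did not run alike. Of the miR-467 rows tested, 0 had a positive and 7 a negative fold change on the spike-in scale, with a median of -1.36, and with TMM factors it was again 0 and 7, with a median of -1.67. For miR-466 the counts were 9 and 2 with a median of 0.47 on the spike-in scale, and 4 and 7 with a median of -0.16 with TMM factors, so that its direction depended on the scale. For miR-669 they were 6 and 4 on both scales, with medians of 0.64 and 0.20. Both miR-297 rows tested were negative, with medians of -0.77 and -1.47. Differences between families were not tested, and since the filter requires UMIs in at least 5 mice, these counts describe only the rows that passed it.

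The miR-467 family summed to 113, 70, 40, 84, 79, 164, 40 and 92 UMIs in HCC mice 1 to 8 and to 228, 261, 224, 96 and 692 UMIs in non-HCC mice 1 to 5. Non-HCC 4 lay within the range of the HCC mice, and the other non-HCC mice lay above all of them by UMIs. On the log2 spike-in scale the HCC mice averaged 6.48 ± 1.44 (SD, n = 8) and the others 7.65 ± 1.31 (SD, n = 5). In CPM, the HCC mice ranged from 3.38 to 16.8 with a median of 6.17 and the non-HCC mice from 7.1 to 49.6 with a median of 20.9.

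Most of these UMIs came from 2 rows of the 5p arm. MiR-467e-5p was counted at 38, 27, 11, 35, 28, 46, 11 and 29 UMIs in HCC mice 1 to 8 and at 47, 88, 74, 25 and 282 UMIs in non-HCC mice 1 to 5. All HCC mice were at or below 46, and 4 of the 5 non-HCC mice were above that, non-HCC 5 by far the most. Its log2 fold change was -1.36 ± 0.74 (SE, edgeR adjusted p = 0.337, exact two-sided permutation p = 0.27) on the spike-in scale and -1.86 ± 0.50 (SE, edgeR adjusted p = 0.0276) with TMM factors.

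MiR-467c-5p gave 44, 30, 19, 16, 20, 61, 18 and 28 UMIs in HCC mice and 58, 88, 74, 30 and 207 UMIs in non-HCC mice. The groups overlapped, since HCC 6 lay above non-HCC 1 and non-HCC 4. On the spike-in scale the log2 fold change was -1.10 ± 0.68 (SE, edgeR adjusted p = 0.424, exact two-sided permutation p = 0.218), and with TMM factors it was -1.59 ± 0.45 (SE, edgeR adjusted p = 0.0347).

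Non-HCC 5 weighed heavily on both. Without it the spike-in log2 fold change was -0.00 for miR-467e-5p and -0.10 for miR-467c-5p, and with TMM factors it was -1.07 (edgeR adjusted p = 0.152) and -1.06 (edgeR adjusted p = 0.16). Without non-HCC 3 neither passed with TMM factors (edgeR adjusted p = 0.0522 and 0.07), although the log2 fold changes of -1.91 and -1.59 were no smaller than with all mice. Leaving out any other mouse kept the TMM call of miR-467e-5p. That of miR-467c-5p held without HCC 1, HCC 2, HCC 6 or non-HCC 4 and was lost without each of the others, with log2 fold changes of -1.37 to -1.66 apart from that without non-HCC 5.

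Among the less abundant rows, miR-467b-5p was above 0 in 1 of 8 HCC mice, HCC 8 with 12 UMIs, and in 4 of 5 non-HCC mice with 16, 19, 11 and 31 UMIs. It had the smallest p of the lower members (log2 fold change -3.57 ± 1.71 (SE), edgeR adjusted p = 0.249, and -3.31 with TMM factors), and its exact two-sided permutation p of 0.0342 before adjustment became 0.326 when 10 UMIs were added before log2. The other arm, miR-467b-3p, was above 0 in 3 HCC and 3 non-HCC mice, at up to 45 UMIs. MiR-467d-3p was at 0 in all 8 HCC mice and above 0 in 3 of 5 non-HCC mice, and miR-467d-5p was above 0 in 4 of 8 and 4 of 5. MiR-467g, the CA repeat on the strand opposite to Grk4, was above 0 in HCC 5 and HCC 7 at 10 and 11 UMIs. It was also above 0 in 4 non-HCC mice, at 13 to 29 UMIs. MiR-467h, whose hairpin also lies outside Sfmbt2, was listed in 5 of 8 HCC mice at 10 to 21 UMIs and in all 5 non-HCC mice at 15 to 25 UMIs (log2 fold change -0.07 ± 1.14 (SE), edgeR adjusted p = 0.994). Its fold change was -1.06 ± 1.01 (SE) with TMM factors (edgeR adjusted p = 0.684) and -1.14 by limma, so that its size depended on the scale and the test. MiR-467f and miR-467a-3p were each above 0 in a single mouse.

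The miR-669 family ran differently. Its leading row, miR-669a-3p and miR-669o-3p, gave 1451, 681, 148, 746, 868, 955, 172 and 438 UMIs in HCC mice 1 to 8 and 764, 319, 328, 469 and 959 UMIs in non-HCC mice 1 to 5. HCC mice held both the highest and the lowest values, and the non-HCC mice lay between. Its log2 fold change was 1.05 ± 0.77 (SE, edgeR adjusted p = 0.552, exact two-sided permutation p = 0.568), and 0.32 with TMM factors. Without non-HCC 5 it was 1.68 on the spike-in scale (edgeR adjusted p = 0.28). Its 5p partner, the joined row of miR-669a-5p and miR-669p-5p, was far lower at 0 to 38 UMIs in HCC and 18 to 47 UMIs in non-HCC mice.

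MiR-669c-5p gave 477, 225, 192, 297, 233, 532, 190 and 221 UMIs in HCC mice and 598, 523, 521, 287 and 986 UMIs in non-HCC mice. All non-HCC mice but non-HCC 4 were at or above 521, and of the HCC mice only HCC 6 was. In CPM the medians were 20.8 in HCC and 49.8 in non-HCC mice. On the spike-in scale the log2 fold change was -0.36 ± 0.63 (SE, edgeR adjusted p = 0.883, exact two-sided permutation p = 0.454), and with TMM factors it was -0.96 ± 0.35 (SE, edgeR adjusted p = 0.0948). Without non-HCC 5 the spike-in value was 0.27, and without HCC 1 the value with TMM factors passed (-1.17, edgeR adjusted p = 0.042), where 1.7% of all miRNAs were called lower. Its 3p arm was at 0 to 15 UMIs throughout.

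MiR-669h-3p came closest to a call among the members with a positive fold change. It gave 101, 22, 32, 191, 29, 76, 37 and 78 UMIs in HCC mice 1 to 8 and 27, 14, 27, 39 and 0 UMIs in non-HCC mice 1 to 5. HCC 1, 4, 6 and 8 were above every non-HCC mouse by UMIs, and the other 4 HCC mice lay among them. Non-HCC 5, the mouse with the highest sum of all members, was the only mouse with an entry of 0. Its log2 level averaged 6.00 ± 1.28 (SD, n = 8) with HCC and 3.47 ± 1.82 (SD, n = 5) without. A log2 fold change of 2.43 ± 0.80 (SE) did not pass after adjustment (edgeR adjusted p = 0.0664, exact two-sided permutation p = 0.0101 before adjustment), nor did the 1.62 with TMM factors (edgeR adjusted p = 0.152). It did pass with DESeq2 on the spike-ins (adjusted p = 0.0107), without HCC 3 (edgeR adjusted p = 0.0301), without HCC 7 (edgeR adjusted p = 0.0329), with the pairs of alike HCC libraries summed (edgeR adjusted p = 0.0494) and with the replicate number as a block (2.57, edgeR adjusted p = 0.00371), although these numbers pair no mice in the labels. In these 4 edgeR fits 11%, 10.2%, 6.92% and 9.99% of all miRNAs were called higher. Without non-HCC 5 the log2 fold change was 2.12 (edgeR adjusted p = 0.101). The 5p arm of the same hairpin was above 0 only in non-HCC 2, at 11 UMIs.

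MiR-669p-3p gave 52, 20, 15, 41, 27, 37, 0 and 22 UMIs in HCC mice and 31, 0, 16, 22 and 34 UMIs in non-HCC mice, and its log2 fold change was 1.04 ± 0.95 (SE, edgeR adjusted p = 0.656), or 0.37 with TMM factors. MiR-669f-3p was above 0 in all mice at 13 to 64 UMIs, and its log2 fold change was 0.70 ± 0.69 (SE, edgeR adjusted p = 0.68), or 0.09 with TMM factors. In all, 7 miR-669 rows were above 0 in a single mouse, among them miR-669o-5p with 17 UMIs in HCC 8.

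In the miR-466 family the 3 rows with the highest mean levels were all of the 3p arm. MiR-466d-3p gave 86, 59, 30, 52, 67, 88, 16 and 38 UMIs in HCC mice and 94, 46, 33, 45 and 99 UMIs in non-HCC mice. MiR-466h-3p gave 62, 27, 15, 57, 27, 44, 37 and 39 UMIs in HCC mice and 73, 42, 47, 47 and 77 UMIs in non-HCC mice. The joined row of miR-466a-3p and miR-466e-3p gave 80, 35, 10, 28, 36, 78, 11 and 23 UMIs in HCC mice and 38, 31, 21, 28 and 118 UMIs in non-HCC mice. The groups overlapped in all 3 rows. On the spike-in scale their log2 fold changes were 0.60, 0.00 and 0.26, each smaller than its standard error (0.71, 0.60 and 0.78), and with TMM factors each lay below 0.

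MiR-466i-5p, from the hairpin in Cdk13, was above 0 in all 13 mice and miR-466i-3p in 11, with log2 fold changes of 0.11 ± 0.69 and 0.76 ± 0.97 (SE, edgeR adjusted p = 0.972 and 0.788). With TMM factors they were -0.59 and 0.17, so that the direction of miR-466i-5p depended on the scale. MiR-466k, the UG repeat shown above, was above 0 in HCC 8, non-HCC 1 and non-HCC 5 with 18, 10 and 29 UMIs. The plain miR-466f entry was above 0 in 3 HCC mice and in no non-HCC mouse, at up to 28 UMIs, which does not pass the filter.

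The miR-297 family, the smallest, was carried by the joined 3p row of miR-297a, miR-297b and miR-297c. It gave 30, 15, 11, 24, 20, 19, 15 and 18 UMIs in HCC mice and 35, 19, 14, 25 and 64 UMIs in non-HCC mice, and its log2 fold change was -0.20 ± 0.69 (SE, edgeR adjusted p = 0.953), or -0.68 with TMM factors. MiR-297a-5p was above 0 in 2 of 8 HCC mice, at 11 UMIs each, and in 4 of 5 non-HCC mice at 11 to 19 UMIs. MiR-297b-5p was above 0 in HCC 4, non-HCC 1 and non-HCC 5.

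Members were also described by arm. Rows of the 3p arm carried 58.8% of the members' UMIs, rows of the 5p arm 36.9% and rows named without an arm 4.31%. On the spike-in scale 2 of 10 tested 5p rows had a positive fold change, with a median of -0.91, and 12 of 16 tested 3p rows, with a median of 0.55. Over all miRNAs the arms lay closer together, as 81.6% of 636 tested 5p rows were positive with a median of 0.74, and 81.1% of 567 tested 3p rows with a median of 0.86. With TMM factors 1 of 10 member 5p rows and 8 of 16 member 3p rows were positive, against 56% and 61.6% over all miRNAs. Of the 10 member 5p rows 4 belong to miR-467 and were all negative, and the difference between the arms was not tested.

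The ratio of the arms within a mouse needs no scale. The log2 ratio of the summed 3p over the summed 5p members was 1.67, 1.63, 0.17, 1.20, 1.81, 0.93, 0.42 and 1.05 in HCC mice 1 to 8 and 0.56, -0.55, -0.54, 0.75 and -0.10 in non-HCC mice 1 to 5. HCC 3 and HCC 7 fell within the range of the non-HCC mice, and the other 6 HCC mice lay above all of them. HCC 3 and HCC 7 are a pair of alike libraries, and the other 6 include the pairs HCC 1 with HCC 6 and HCC 2 with HCC 5. The 8 HCC ratios are therefore not 8 separate profiles. The means were 1.11 ± 0.59 (SD, n = 8) and 0.02 ± 0.61 (SD, n = 5). The ratio of the leading pair alone, miR-669a-3p/miR-669o-3p over miR-669c-5p, averaged 0.97 ± 0.83 and -0.07 ± 0.62 on the log2 scale and put the mice in a similar order. It was looked at after its values were seen, and neither ratio was tested. As both ratios rest largely on the same pair of rows, they are not separate observations.

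**Figure D4:**
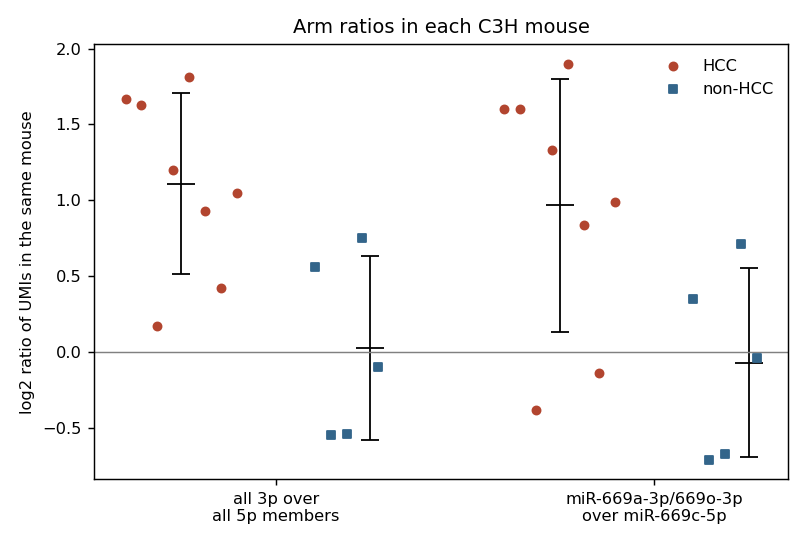
Log2 ratio of UMIs within the same C3H mouse, for all 3p over all 5p members (left) and for miR-669a-3p/miR-669o-3p over miR-669c-5p (right). Circles are HCC mice, squares are non-HCC mice, and the bars show mean and SD. The HCC mice average 1.11 and 0.97, the non-HCC mice 0.02 and -0.07, and HCC 3 and HCC 7 lie among the non-HCC mice in both.

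Where both arms of a hairpin had rows of their own, 1 arm usually led. MiR-669c gave 5282 UMIs of the 5p and 70 of the 3p arm over the 13 mice, and miR-669h 11 of the 5p and 673 of the 3p arm. For miR-466h the values were 53 and 594, for miR-669f 72 and 446, and for miR-669b 280 and 27. MiR-467b with 89 and 109 and miR-466f with 148 and 106 were more even. Since several hairpins give the same mature sequence on 1 arm, these are sums per name and not per hairpin.

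Other cell types can give RNA to plasma, and their marker miRNAs were followed beside the members. The 6 red cell miRNAs made up 66890 to 394686 CPM in HCC and 365060 to 389444 in non-HCC mice, and the 5 platelet and leukocyte miRNAs 12295 to 32527 in HCC and 27533 to 49044 in non-HCC mice. MiR-16-5p had the most UMIs of the red cell list in every mouse, at 559174 to 3491688 in HCC and 2921355 to 3878330 in non-HCC mice. The red cell range is therefore largely that of miR-16-5p. All 11 miRNAs of both lists were above 0 in every mouse and 0 were called. Their median log2 fold changes were -0.54 and -0.69 on the spike-in scale, below the median of 0.78 over all miRNAs. The medians of all 4 families of members also lay below 0.78. Of the 5 liver miRNAs, 4 were called higher in HCC and 0 lower, with a median of 4.51, and they took 41399 to 517820 CPM in HCC and 9083 to 11532 in non-HCC mice. Of the 5 muscle miRNAs 0 were called, with a median of 1.47 (383 to 14652 and 737 to 3684 CPM). The liver and muscle miRNAs were also above 0 in every mouse. The part of these cells in the values of the members was not tested, and fewer cells of a type and less RNA per cell cannot be told apart in plasma.

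Another large mouse cluster known from embryonic stem cells and placenta, miR-290 to miR-295, had 17 rows, 9 of them tested and 0 called, with a median log2 fold change of 2.04. It ranged from 3.37 to 128 CPM in HCC and from 5.91 to 19 in non-HCC mice. Outside the families, 5 miRNAs held the letters UGUGUGUG, 3 of which were tested and 0 called, with a median of 1.10. MiR-574-5p, whose sequence stands above, gave 148, 108, 25, 81, 113, 126, 12 and 64 UMIs in HCC mice and 27, 34, 30, 41 and 32 UMIs in non-HCC mice, and its log2 fold change was 2.33 ± 0.80 (SE, edgeR adjusted p = 0.0773), or 1.41 with TMM factors (edgeR adjusted p = 0.0873). DESeq2 called it higher with its own size factors and with the spike-ins (adjusted p = 0.0354 and 0.0136). It also passed without HCC 3 or HCC 7 (edgeR adjusted p = 0.0297 and 0.0224) and with the replicate number as a block (edgeR adjusted p = 0.0158). It did not pass with the alike HCC libraries summed (edgeR adjusted p = 0.0767) or by limma (log2 fold change 1.49, limma adjusted p = 0.524). By UMIs, every HCC mouse but HCC 3 and HCC 7 was above every non-HCC mouse. MiR-1187 was above 0 in 3 mice, at 11 to 15 UMIs.

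The miRNAs whose log2 levels ran most like the summed members, of 689 compared over the 13 mice, were miR-879-5p, miR-128-3p and miR-598-3p, with a Pearson r of 0.97, 0.94 and 0.94. All levels share the spike-in scale of their mouse, and the median r over all 689 miRNAs was 0.71. In CPM these r were 0.90, 0.58 and 0.84, and the median was 0.16.

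Among 1885 rows listed for F2 mice, 60 were members, 2 of miR-297, 21 of miR-466, 12 of miR-467 and 25 of miR-669. Of these, 44 were also in the C3H table and 16 were not, and 4 rows were in the C3H table only. The F2 columns were shallower, at 205194 to 3020311 miRNA UMIs with a median of 846338, so that 9 UMIs, the most an entry of 0 can hide, stood for 2.98 to 43.9 CPM with a median of 10.6. Even so, 8 to 36 members were above 0 in a column, with a median of 20. The members summed to 179 to 1354 UMIs with a median of 550, or 205 to 2109 CPM with a median of 580, where C3H mice had a median of 136, and 51 of the 53 columns lay above the highest C3H mouse. Over the 989 miRNAs above 0 in most C3H mice and most F2 columns, the log2 ratio of median CPM, F2 over C3H, had a median of 2.65. For the 11 members among them it was 2.79. A row low in the F2 columns is at 0 there and drops out of this set, so that the set leans towards high ratios. These medians therefore do not show whether the rise was particular to the members. The tables were counted separately, and the difference was not tested.

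Only miR-669c-5p was above 0 in all 53 F2 columns, at 39 to 241 UMIs with a median of 117, and miR-669a-3p/miR-669o-3p was above 0 in 51, at up to 596 UMIs with a median of 82. In C3H mice their medians were 297 and 681 UMIs. Per depth the F2 medians were 142 CPM for miR-669c-5p and 84.3 CPM for miR-669a-3p/miR-669o-3p, and the C3H medians 23.6 and 47.8 CPM. The log2 ratios of these medians, F2 over C3H, were 2.59 and 0.82, against the median of 2.65 over the 989 miRNAs above. MiR-669c-5p was thus the higher of the pair by median in F2 columns, with 49.8 against 34.7 CPM also in non-HCC mice, and the lower in HCC mice, with 20.8 against 53.6 CPM. Within single mice the order was the opposite in non-HCC 1 and non-HCC 4, where miR-669c-5p was the lower, and in HCC 3 and HCC 7, where it was the higher. The other C3H mice kept the order of their group's medians. Together the pair made up 38.6% of the members' UMIs in F2 columns and 59.4% in C3H mice.

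Several rows differed in how often they were listed. MiR-669g was above 0 in 50 of 53 F2 columns with a median of 20 UMIs, or 25.4 CPM, and miR-669n, whose hairpin lies in Slc30a7, in 49 with a median of 21 UMIs, or 25.5 CPM. Neither has a row in the deeper C3H table, in which every listed miRNA is above 0 in at least 1 mouse. Of the 67 miRNAs with a row in the F2 table alone, only 3 were above 0 in over 40 columns, miR-669g, miR-669n and miR-7657-5p. MiR-669h-5p was above 0 in 43 F2 columns and in 1 C3H mouse, while miR-669h-3p, from the other arm, was above 0 in 49 and 12. MiR-467b-3p was above 0 in 50 F2 columns with up to 306 UMIs and in 6 C3H mice, and miR-466b-5p/miR-466o-5p in 37 and 2. The miR-467 rows that led in C3H mice were above 0 in 18 (miR-467c-5p) and 13 (miR-467e-5p) F2 columns. Their C3H medians of 2.94 and 3.05 CPM lie below the 10.6 CPM that an entry of 0 can hide in the median F2 column, so that these counts show no difference in level. Depth, strain, sex, disease state, irradiation, age and the way of bleeding are not matched between the tables, and their parts cannot be told apart.

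**Figure D5:**
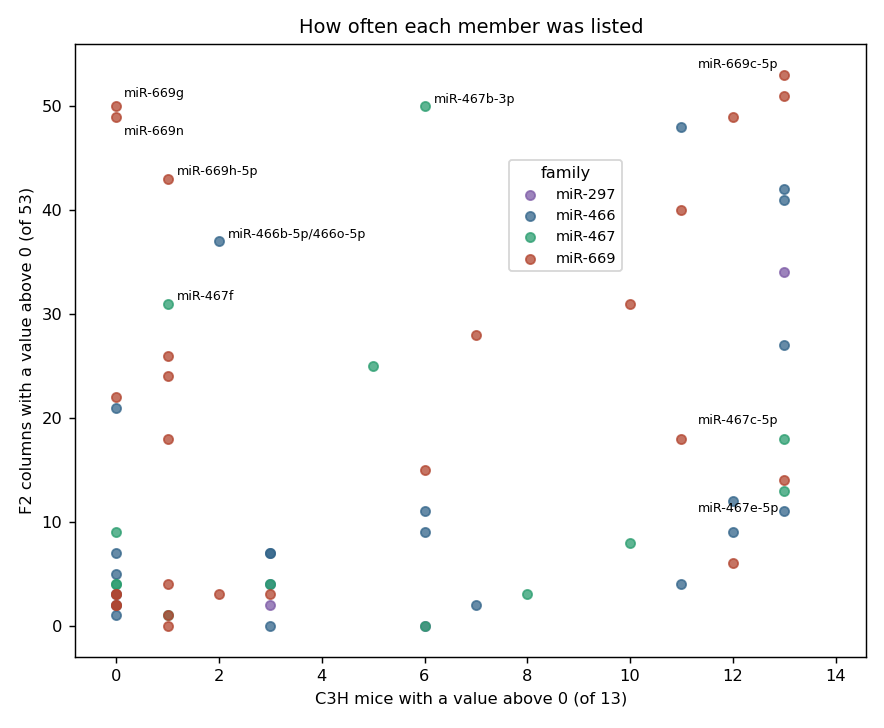
Number of C3H mice (horizontal axis, of 13) and of F2 columns (vertical axis, of 53) in which each of the 64 member rows of either table was above 0, colored by family, with a row missing from a table drawn at 0. MiR-669g and miR-669n lie at 0 C3H mice and at 50 and 49 F2 columns, while miR-467c-5p and miR-467e-5p lie at 13 C3H mice and at 18 and 13 F2 columns.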

How the data were processed

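Plasma miRNAs were counted by the authors from QIAseq libraries with molecular barcodes, using single-end reads aligned to GRCm38 and annotated by miRBase. The submitters' processing notes name FastQC and Bowtie2. The deposited values are UMI counts per miRNA without normalization, with the counts of UniSP2 and UniSP4. The labels name each C3H mouse by its column. Of the 53 F2 columns only the strain and the histology are known. How reads that fit several copies were assigned is not given in the sources used here. Nothing states that plasma was pooled.

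HCC and non-HCC C3H mice were compared with edgeR 4.0.16 in R 4.3.3 (quasi-likelihood test, spike-in mean as library scale, at least 10 UMIs in at least 5 mice, Benjamini-Hochberg adjustment over all miRNAs, threshold 0.05). Standard errors are the fold change over the square root of F. For single miRNAs, two-sided exact p-values came from the 1287 permutations of the mice in Python 3.11.15 (numpy 2.4.6, pandas 2.3.3, matplotlib 3.10.9), without adjustment. The fit was tested on simulated counts. The comparison was repeated without each mouse, with the replicate number as a block, with other filters, with TMM factors, with UniSP2 or UniSP4 alone, and by DESeq2 1.42.0 and limma 3.58.1. Summing alike HCC libraries and leaving out mice under TMM were added after the data were seen. Hairpins were placed through the RefSeq and GENCODE M21 annotations of GRCm38.

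The members and lists were chosen with earlier results of these data known. Named by rule were the 3 members of each family with the highest mean level, the 3 with the smallest p in each direction, the other arm of each, miR-574-5p, miR-1187 and the 3 miRNAs most like the summed members. Other members named were chosen after their values were seen. The lists were red cells (miR-16-5p, miR-363-3p, both arms of miR-144, miR-486a-5p and miR-451a), platelets with leukocytes (miR-126a-3p, miR-150-5p, both arms of miR-142a, and miR-223-3p), liver (both arms of miR-122, miR-101b-3p, miR-194-5p and miR-192-5p), muscle (miR-499-5p, miR-208b-3p, miR-206-3p, miR-133a-3p and miR-1a-3p) and miR-290 to miR-295.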

Additional observations from a re-analysis of the deposited data

Results flagged for a closer look

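The summed level of all members, that of each family and the level of each named member were searched for a mouse that stood apart from its group, 50 groups in all, of which 5 had such a mouse. About 1 group in 20 does so by chance where the values are normally distributed and the groups independent. Rows with entries of 0 and sums that hold the rows searched do not meet this, so that the share due to chance is not known here. In the summed level of all members non-HCC 5 was high, with 12.23 on the log2 spike-in scale where the next non-HCC mouse had 10.57. In the joined row of miR-466a-3p and miR-466e-3p non-HCC 5 was again high, with 7.29 (118 UMIs) above 4.67. HCC 7 was low for miR-669p-3p, at -0.97 with an entry of 0, below 3.13. Non-HCC 2 was high for miR-466h-5p, with 3.38 (14 UMIs) above 0.39, and for miR-669h-5p, with 3.05 (11 UMIs) above 0.39, in both cases as the only non-HCC mouse with an entry above 0.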

How the results depend on the processing

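On the spike-in scale 0 members passed the threshold. TMM factors gave 2 and DESeq2 with its own size factors 2, both times miR-467c-5p and miR-467e-5p as lower. DESeq2 with spike-in size factors gave 1, miR-669h-3p as higher, and so did summing the pairs of alike HCC libraries (1). Leaving out each mouse gave 0 to 1, with miR-669h-3p called without HCC 3 or HCC 7, and 0 to 3 together with TMM factors, the third without HCC 1 being miR-669c-5p. Over the fits that left out a mouse, 3.13% to 11% of all miRNAs were called higher on the spike-in scale. Together with TMM factors, 0.981% to 2.64% were called lower. The shares of all miRNAs called in the other fits named so far stand beside the members above. Limma, each spike-in alone, no filter and a filter of 20 UMIs gave 0. Over all miRNAs, limma called 1.86% higher, UniSP2 alone 7.51%, UniSP4 alone 8.95%, no filter 6.41% and the filter of 20 UMIs 12.1%. Called lower were 0.0689% with UniSP4 alone and 0% in the others. The filter of 20 UMIs kept 17 members. UniSP2 alone nearly repeats the main fit, since UniSP4 adds few UMIs to the mean. With the replicate number as a block 1 member, miR-669h-3p, passed as higher (log2 fold change 2.57, edgeR adjusted p = 0.00371). The numbers pair no mice in the labels. Deviations of same-numbered mice correlated at -0.05 to 0.21, over 0.1 for 3 of 5 pairs, and 1 of 5 non-HCC mice was most like the HCC mouse of its own number.

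The difference in the summed miR-297 family went from -0.43 to -1.93 without its most abundant row. For the other sums, and for members that separated the groups, each alternative moved the value by less than 1 SD between mice or left it at 0. That SD was 1.37 to 1.45, wider than the differences on the spike-in scale. The miR-467 difference of -1.17 was -0.63 without non-HCC 5, -0.58 with entries of 0 set to 9 UMIs and -1.55 with TMM factors. With TMM factors the sums of all members, miR-466 and miR-669 changed sign, from 0.05, 0.10 and 0.22 to -0.33, -0.28 and -0.16. Several small fold changes changed sign. With TMM factors and with DESeq2 size factors, miR-466d-3p was at -0.16 and -0.12, miR-466h-3p at -0.57 and -0.53, the joined row of miR-466a-3p and miR-466e-3p at -0.26 and -0.24, and miR-466i-5p at -0.59 and -0.55. MiR-466h-3p, at 0.00, also fell to -0.15 with limma, -0.00 with DESeq2 on the spike-ins and -0.01 with the alike libraries summed, and miR-466i-5p to -0.16 with limma and -0.02 with these summed. The joined miR-297 3p row was at 0.21 with the block. Leaving out each mouse gave -0.46 to 0.65 for that row, -0.14 to 0.42 for miR-466h-3p, -0.04 to 1.42 for miR-466a-3p/miR-466e-3p, -0.35 to 0.74 for miR-466i-5p, -0.33 to 0.26 for miR-467h, -0.62 to 0.27 for miR-669c-5p, -0.53 to 0.26 for miR-669a-5p/miR-669p-5p and -1.08 to 0.30 for miR-467b-3p, the highest without non-HCC 5 but for miR-467b-3p, where it was without non-HCC 1. The causes were not tested. MiR-467b-5p could not be fitted with the filter of 20 UMIs, nor without any of the 5 mice that list it. Depth limits all members but the leading pair, since most of the others lie within a few times the minimum of 10 UMIs.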
